A study of Capsella grandiflora and Capsella rubella and Capsella orientalis with 27 samples.

Results

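In 32 of 26521 genes, the self-fertilising species Capsella rubella and Capsella orientalis stood on opposite sides of the outcrossing Capsella grandiflora at all 3 stages sampled, which were expanding buds, dividing buds and seedlings. In 23 of them, called rubella-high here, the level was above C. grandiflora in C. rubella and below it in C. orientalis. In the other 9, called orientalis-high, the order was the reverse. The genes were chosen by their own measured levels, so their differences between species are given as a description, with no test. The rule took the mean CPM (counts per 1000000 gene counts) of each group of 3 libraries, and asked for at least 2 CPM in C. grandiflora at every stage. It then asked for a level at least 2-fold above C. grandiflora in a selfing species and at least 2-fold below it in the other, after adding 0.1 CPM to each mean, with the same species above at all 3 stages. Of 15001 genes that reached 2 CPM in C. grandiflora at every stage, 0.153% were rubella-high and 0.0600% were orientalis-high.

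The libraries were made from total RNA of C. grandiflora, C. rubella and C. orientalis, each sampled as expanding and maturing flower buds, as dividing flower buds and as seedlings at 10 days of age, and were sequenced in single reads of 50 cycles. Each of the 9 groups held 3 libraries. No strain, accession, treatment or number of plants per library is named in the labels, and nothing in them says whether the 3 libraries of a group came from separate plants, so the p-values below measure the spread between libraries, which may be technical. Gene counts per library ran from 10612848 to 40909319. In RNA from buds and seedlings, fewer cells of a type and less RNA per cell cannot be told apart.

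Selfing has evolved repeatedly in Capsella, and flowers of selfing plants are usually smaller and make less pollen than those of outcrossing relatives. Together these traits are named the selfing syndrome. In a selfing lineage most plants become homozygous, so that a line comes to carry a single version of a gene, whereas an outcrossing population such as C. grandiflora keeps many versions side by side. The identifiers are given as in the files, which do not pair them with gene names, so no function is stated for any of these genes and the tissue labels could not be checked against named marker genes. All 3 species were counted on the same identifiers, whose form is that of C. rubella gene models. Reads that aligned to several places made up 4.13% to 7.10% of listed reads in the C. rubella groups, 4.33% to 9.30% in C. grandiflora and 6.75% to 8.33% in C. orientalis, as group means. Their part in the levels below was not tested, and neither was how fully the reads of each species were counted on these identifiers. A low level of a gene in a species and reads not counted on its model cannot be told apart here.

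Opposite steps at a single stage were more frequent than opposite steps at every stage. With the 2 CPM floor applied at that stage only, 140 genes met the rubella-high steps in expanding buds, as did 113 in dividing buds and 150 in seedlings. The corresponding orientalis-high counts were 52, 138 and 85. Among genes at or above the floor at all stages, 100 met the rubella-high steps at exactly 1 stage, 37 at exactly 2 stages and 23 at all 3. For the orientalis-high steps these counts were 92, 16 and 9. Counting the genes at all 3 stages as well, 47 genes met the rubella-high steps at both bud stages, 32 in expanding buds and seedlings and 27 in dividing buds and seedlings. For orientalis-high steps the pairs held 15, 11 and 17 genes in the same order. Just inside the threshold, the smallest step of a rubella-high gene was 2.08-fold, 2.09-fold and 2.10-fold, and just outside it 1.99-fold, 1.97-fold and 1.96-fold. For orientalis-high genes the values were 2.06-fold, 2.14-fold and 2.23-fold inside and 1.98-fold, 1.87-fold and 1.81-fold outside. A 1.5-fold rule was met by 63 rubella-high and 25 orientalis-high genes and a 3-fold rule by 6 and 2.

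The rubella-high genes were at a low level in C. grandiflora, at a higher one in C. rubella and mostly under 0.5 CPM in C. orientalis. In expanding buds their median level was 20.1 CPM in C. rubella, 4.49 CPM in C. grandiflora and 0.245 CPM in C. orientalis. In the same order the medians were 33.6, 5.84 and 0.271 CPM in dividing buds and 35.4, 6.64 and 0.198 CPM in seedlings. The genes ranged from 2.07 to 14.2 CPM in C. grandiflora expanding buds, from 2.05 to 43.4 CPM in dividing buds and from 2.02 to 66.6 CPM in seedlings. The median over all 15001 genes at the floor was 25.5, 30.6 and 24.3 CPM in C. grandiflora at these stages, so the members lay mostly in the lower part of the range.

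The step down into C. orientalis was deeper than the step up into C. rubella in most rubella-high genes. On the log2(CPM + 0.1) scale, the median step up was 2.10, 2.09 and 1.66 and the median step down -3.55, -4.25 and -3.97 for expanding buds, dividing buds and seedlings. Both steps start from the same C. grandiflora libraries, so they are set side by side and no relation between them is read. Groups with no count in any of their 3 libraries, 2, 2 and 1 of them at the stages in this order, were then set at the level that 3 counts over the group would give, which made the medians of the step down -3.55, -3.97 and -3.97. The downward step was the larger in 15, 18 and 21 of the 23 genes at these stages. It was at least 8-fold at every stage in 12 genes, whereas the upward step was that large at every stage in 3. The smallest separation of the selfing species over the stages had a median of 57.5-fold and ran from 6.44-fold to 307-fold.

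**Figure D1:**
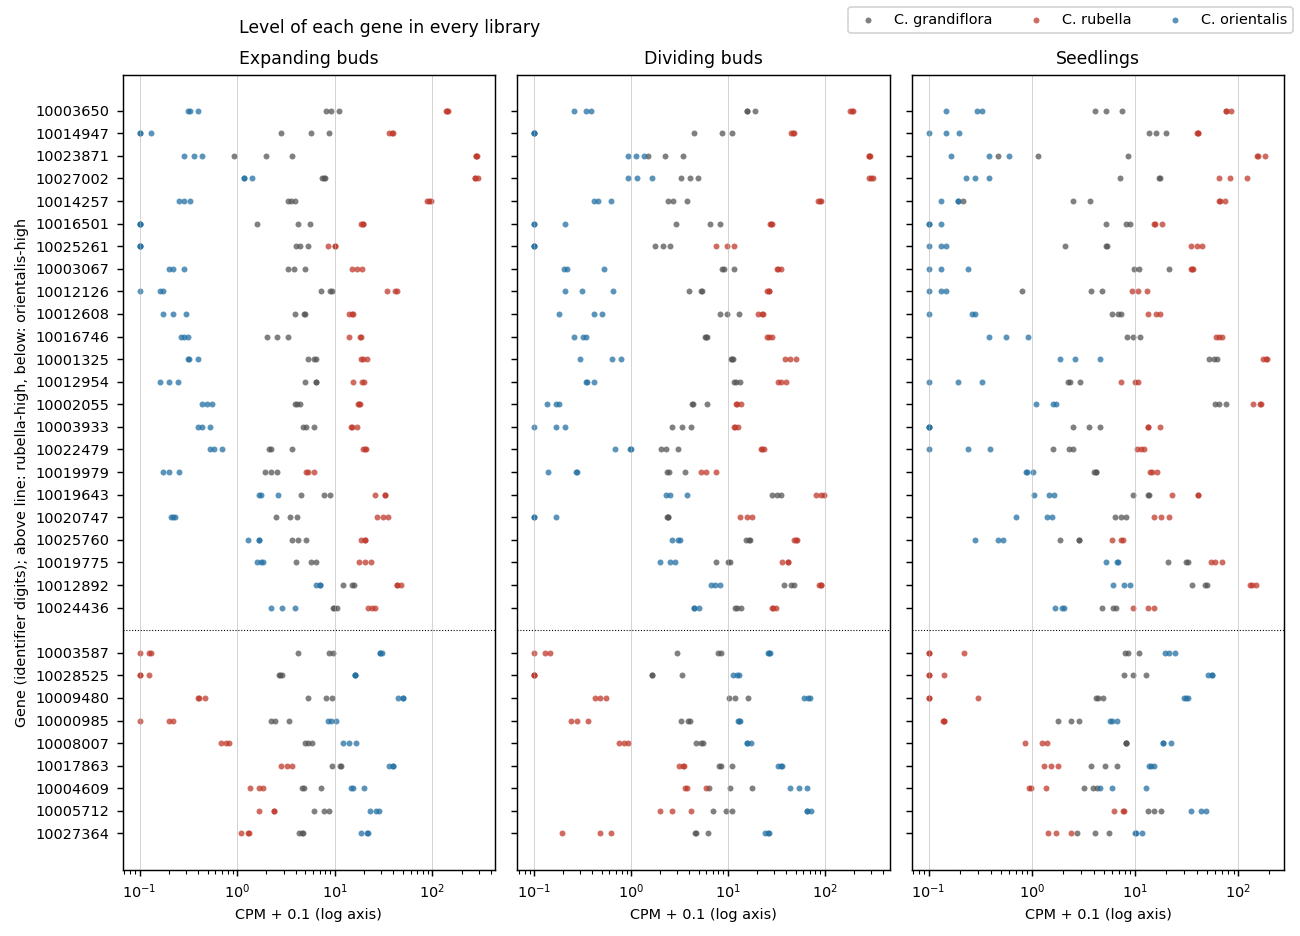
Level of each of the 32 genes in every library, as CPM + 0.1 on a log axis, with 1 panel for each stage and 1 point for each library. Rubella-high genes are above the dotted line and orientalis-high genes below it, each ordered by the smallest separation of the selfing species, and the C. grandiflora points (grey) lie between those of C. rubella (red) and C. orientalis (blue) in all 3 panels for 22 of 23 rubella-high and 9 of 9 orientalis-high genes, which were chosen by these levels. Over all 15001 genes at the floor these shares are 1.12% and 0.613%.

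Carubv10003650m.g had the widest separation of the selfing species when each gene was ranked by its smallest separation over the stages. In C. grandiflora it stood at 8.07, 9.09 and 10.9 CPM in the 3 expanding bud libraries, at 15.7, 18.8 and 15.6 CPM in dividing buds and at 5.12, 7.44 and 4.03 CPM in seedlings. In C. rubella the levels were 143, 137 and 145 CPM, then 192, 183 and 193 CPM, then 76.3, 75.3 and 84.9 CPM. In C. orientalis they were 0.300, 0.231 and 0.212 CPM, then 0.289, 0.244 and 0.158 CPM, then 0.197, 0.0467 and 0.228 CPM, from 1 to 8 counts in each library. Its groups did not overlap at any stage. Relative to C. grandiflora it was 15-fold, 11.3-fold and 14-fold higher in C. rubella, and 27.2-fold, 50.8-fold and 21.9-fold lower in C. orientalis, in expanding buds, dividing buds and seedlings. Both bud stages of C. grandiflora and of C. rubella had more of it than their seedlings.

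The most abundant rubella-high gene in C. grandiflora, by its lowest stage, was Carubv10012892m.g, which also lay nearest the threshold. Its C. grandiflora libraries held 15.8, 14.8 and 12.1 CPM in expanding buds, 48.0, 37.4 and 44.7 CPM in dividing buds and 47.5, 49.8 and 35.2 CPM in seedlings. Its C. rubella libraries held 47.9, 43.4 and 43.9 CPM, then 87.2, 92.3 and 91.0 CPM, then 130, 135 and 148 CPM. In C. orientalis the gene was not near silence, at 7.02, 6.34 and 6.89 CPM, then 7.29, 8.25 and 6.53 CPM, then 8.74, 7.71 and 6.07 CPM. The levels of C. grandiflora and C. rubella were lowest in expanding buds. In C. orientalis both bud stages together were lower than seedlings by a log2 fold of -0.45 (SE 0.13, edgeR's adjusted p = 0.00248). That fold is on the TMM scale of the test. The CPM means, which carry no such scaling, lay closer together, at 6.75, 7.36 and 7.51 in expanding buds, dividing buds and seedlings.

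In a few rubella-high genes it was the C. rubella level that stood far from the rest in buds. Carubv10023871m.g was at 281 ± 3.61 CPM in C. rubella expanding buds and at 290 ± 3.37 CPM in dividing buds, against 2.07 ± 1.36 and 2.30 ± 1.00 CPM in C. grandiflora (SD, n = 3 each). These are differences of 129-fold and 121-fold, with downward steps of 6.01-fold and 2.10-fold into C. orientalis. Carubv10027002m.g was at 281 ± 12.1 and 299 ± 14.3 CPM in C. rubella buds, 7.61 ± 0.250 and 4.0 ± 0.792 CPM in C. grandiflora buds and 1.16 ± 0.130 and 1.14 ± 0.370 CPM in C. orientalis buds (SD, n = 3 each). In seedlings it was at 90.2 ± 29.3 CPM in C. rubella, 13.8 ± 5.81 CPM in C. grandiflora and 0.198 ± 0.0756 CPM in C. orientalis (SD, n = 3 each). Both genes were thus more abundant in C. rubella than in either of the other species at every stage, as the rule asked. In seedlings the step of Carubv10027002m.g down into C. orientalis, 46.6-fold, was larger than its step up into C. rubella, 6.50-fold.

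In the orientalis-high genes the selfing species changed places. Their median level in expanding buds was 5.44 CPM in C. grandiflora, 20.6 CPM in C. orientalis and 0.661 CPM in C. rubella. In dividing buds the medians were 6.37, 26.5 and 0.388 CPM, and in seedlings 5.08, 19.7 and 1.000 CPM. The median step up was 1.84, 2.23 and 1.39 on the log2(CPM + 0.1) scale at these stages, and the median step down -2.81, -3.58 and -2.80. Of the 9 genes, 7, 6 and 7 had the larger step downward. None of the 9 was 8-fold above C. grandiflora in C. orientalis at every stage, and 4 were at least 8-fold below it in C. rubella at every stage. The smallest separation of the selfing species had a median of 16.9-fold and ran from 5.76-fold to 155-fold. The difference between the member groups was not tested.

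**Figure D2:**
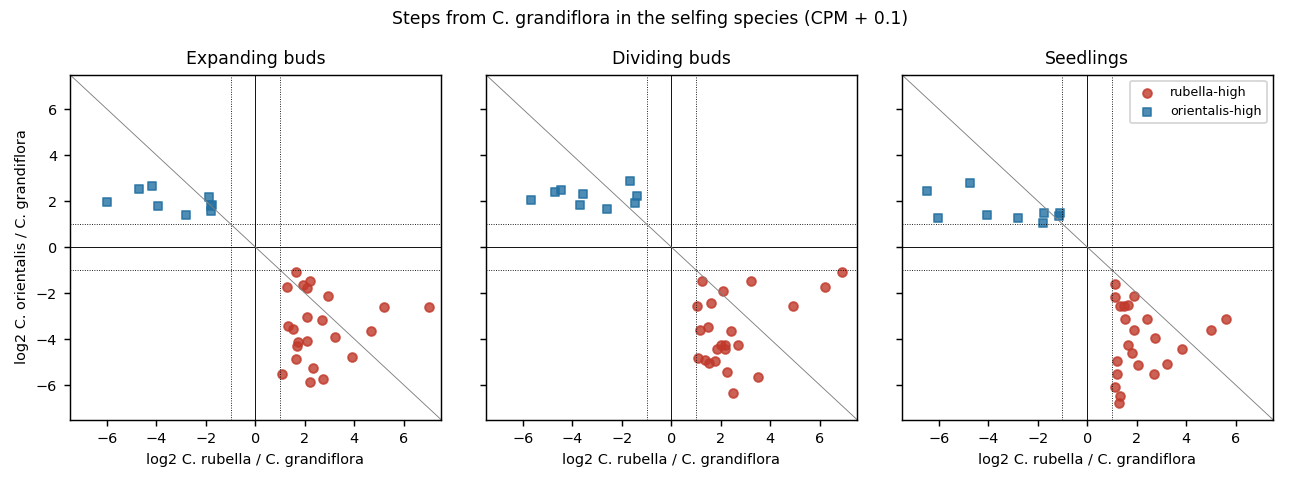
Step from C. grandiflora to C. rubella (horizontal) against the step to C. orientalis (vertical) in log2 units of CPM + 0.1, with 1 panel for each stage and 1 symbol for each gene. Dotted lines mark 2-fold and the grey diagonal marks steps of equal size, and most rubella-high circles lie below the diagonal, where the step down is the larger, with 15, 18 and 21 of 23 there in the panels from left to right.

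Carubv10003587m.g had the widest separation among the orientalis-high genes. In C. grandiflora it was at 8.70, 4.08 and 9.49 CPM in expanding buds, 2.89, 8.35 and 7.85 CPM in dividing buds and 7.91, 10.7 and 8.41 CPM in seedlings. In C. orientalis it was at 28.8, 28.7 and 30.4 CPM, then 25.7, 26.4 and 27.4 CPM, then 19.4, 21.1 and 24.3 CPM. Its 9 C. rubella libraries held 7 counts in all, with 0 in 4 libraries and at most 3 in any. The C. orientalis libraries thus lay close to each other, whereas a C. grandiflora library at each bud stage had less than the other two.

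Carubv10028525m.g was nearer still to absence in C. rubella, with 2 counts in its 9 libraries and none in dividing buds. It was at 15.9, 15.9 and 16.1 CPM in C. orientalis expanding buds, at 12.8, 11.3 and 12.3 CPM in dividing buds and at 51.0, 55.5 and 55.4 CPM in seedlings. The C. grandiflora libraries held 2.81, 2.61 and 2.66 CPM, then 1.54, 3.23 and 1.56 CPM, then 12.6, 7.63 and 9.52 CPM. The C. orientalis libraries held from 310 to 1552 counts of it each, and the groups did not overlap at any stage. Carubv10005712m.g, the orientalis-high gene most abundant in C. grandiflora by its lowest stage, was well detected in all 3 species, at 7.45 ± 1.30, 9.13 ± 2.01 and 15.3 ± 2.19 CPM in C. grandiflora, 25.9 ± 2.74, 67.8 ± 3.15 and 42.4 ± 7.11 CPM in C. orientalis and 2.05 ± 0.422, 2.82 ± 1.11 and 7.12 ± 0.866 CPM in C. rubella, in expanding buds, dividing buds and seedlings (SD, n = 3 each).

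Levels near 0 in the low species were found in some of the genes only. A group mean under 0.5 CPM was found at all 3 stages in 10 of the 23 rubella-high genes, at 2 stages in 6, at 1 stage in 3 and at no stage in 4. Among the 9 orientalis-high genes, 4 were under 0.5 CPM in C. rubella at all stages, 1 at a single stage and 4 at none. The 9 libraries of the low species together held from 2 to 1775 counts of a rubella-high gene, with a median of 83, and from 2 to 985 counts of an orientalis-high gene, with a median of 214. At least 1 of the 9 libraries was at 0 in 10 rubella-high and 4 orientalis-high genes. At counts this low the level in the low species is known only roughly.

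In 22 of the 23 rubella-high genes and in all 9 orientalis-high genes, the 3 groups of each stage did not overlap, with every library of the high species above every C. grandiflora library and every C. grandiflora library above every library of the low species, at all 3 stages. The exception was Carubv10023871m.g, whose groups did not overlap at 2 stages. Its C. grandiflora seedling libraries stood at 0.366, 1.04 and 8.35 CPM and its C. orientalis seedling libraries at 0.0657, 0.280 and 0.502 CPM. The overlap came from the C. grandiflora library at 0.366 CPM. Its C. grandiflora seedling mean of 3.25 CPM reached the 2 CPM floor only through the library at 8.35 CPM. Without that library 22 of the 23 rubella-high genes stayed members. Over all 15001 genes at the floor, the groups parted in this way at every stage for 1.12% in the rubella-high order and 0.613% in the orientalis-high order. The members were chosen by steps between these same group means, so their count is a description and nothing is read from it.

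The spread between C. grandiflora libraries was wider at the median for these genes than for all genes at the floor. The rule set no limit on this spread, but it used the means of these same libraries. An outlying library could thus bring a gene in, so the spread is not independent of the choice and is given as a description. It was measured as the coefficient of variation over the 3 libraries of a group after the part due to counting was taken off. In C. grandiflora expanding buds its median was 12.9% over the rubella-high and 16.1% over the orientalis-high genes, against 7.05% over the 15001 genes at the floor. In dividing buds the medians were 14.5% and 21.3% against 4.77%, and in seedlings 18.0% and 14.4% against 11.3%. Of the 32 genes, 25, 27 and 23 lay above the median of all genes at the floor at these stages. Above the 90th percentile of those genes lay 14, 20 and 11. Since the members were less abundant than most genes, the genes at the floor whose C. grandiflora level fell between the lower and upper quartile of the members' levels were also measured, and their medians were 7.64%, 7.18% and 13.1%.

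In the high species the medians lay nearer, in percentage points, to those of all genes. In C. rubella the rubella-high genes had a median spread of 6.14%, 3.81% and 9.66% in expanding buds, dividing buds and seedlings, against 3.52%, 3.7% and 9.75% over all genes at the floor. In C. orientalis the orientalis-high genes had 7.30%, 3.76% and 5.26%, against 5.85%, 2.95% and 5.46%. Above the median of all genes at the floor lay 16, 13 and 11 of the 23 rubella-high genes in C. rubella. Above the 90th percentile lay 7, 3 and 2. For the orientalis-high genes in C. orientalis these counts were 6, 6 and 4 of 9, and 1, 1 and 2. The levels in the high species were also higher than in C. grandiflora, and the part of the level in the spread was not tested. In the low species, many of the genes have few counts. The rubella-high genes had medians of 0.0%, 12.4% and 16.2% in C. orientalis, where all genes at the floor had 5.85%, 2.95% and 5.46%. The orientalis-high genes had 0.0%, 0.0% and 18.1% in C. rubella. A spread wider than over all genes was thus not confined to C. grandiflora. The same C. grandiflora library could be low for some members and high for others. In seedlings the libraries of Carubv10014257m.g held 2.38, 3.58 and 0.117 CPM, the last from 2 counts, while Carubv10023871m.g was highest, at 8.35 CPM, in that last library. These differences in spread carry no test.

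**Figure D3:**
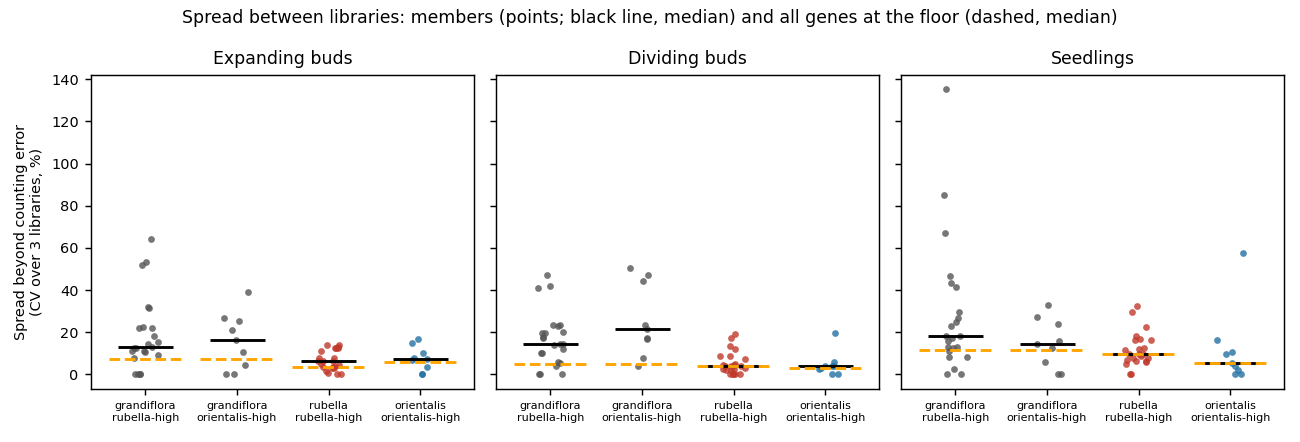
Spread between the 3 libraries of a group, as the coefficient of variation in percent after subtracting the counting part, with 1 point for each gene and a black line at the members' median. Dashed lines mark the median over the 15001 genes at the floor, and the C. grandiflora columns have their black lines above the dashed ones at every stage, for example 14.5% against 4.77% for rubella-high genes in dividing buds.

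Differences between stages within a species were tested for these genes, since the rule set the species order at each stage and not the order of stages. It did ask for its steps at every stage, which limits how far the stage changes of the species could part. All 23 and all 9 genes were among the 23186 genes tested. The stage with the highest mean was not the same for all of them. In C. grandiflora the highest stage was seedlings for 12, dividing buds for 6 and expanding buds for 5 of the rubella-high genes, and the highest stage of C. rubella was the same for 16 of the 23, against 80.5% of the genes at the floor. For 12 of them it was the same in all 3 species, against 67.6%. Among orientalis-high genes the highest stage was shared by C. grandiflora and C. orientalis in 7 of 9, against 77.9% of the genes at the floor, and by all 3 species in 5.

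Between the bud stages, rubella-high genes changed in both directions, and their counts in each direction were not tested against those of all genes. Called at an adjusted p under 0.05 in edgeR's quasi-likelihood test, 5 of the 23 (21.7%) rose and 10 (43.5%) fell in C. grandiflora, where 35.9% of all 23186 genes tested rose and 36.1% fell. In C. rubella 4 (17.4%) rose and 10 (43.5%) fell, against 34.0% and 30.3% of all genes. In C. orientalis, where the counts are low, 3 rose and 2 fell, against 28.7% and 30.3%, and the count of 5 became 3 without replicate 3 of C. orientalis expanding buds. The median log2 fold over the 23 genes was -0.23, -0.17 and -0.38 in C. grandiflora, C. rubella and C. orientalis, beside medians from -0.03 to 0.01 over all genes. Called changes went the same way in C. grandiflora and C. rubella in 13 genes and in opposite ways in 0. Over all genes tested, 54.7% were called the same way and 1.30% in opposite ways in these species, so the count of 13 of 23 is near the share of all genes. Carubv10025760m.g fell in all 3 species, at 16.2 ± 0.931 CPM in C. grandiflora dividing buds and 4.21 ± 0.743 CPM in expanding buds, with C. rubella at 49.7 ± 2.00 and 19.6 ± 1.02 CPM and C. orientalis at 2.88 ± 0.308 and 1.45 ± 0.232 CPM (SD, n = 3 each). Its log2 folds were -1.65 (SE 0.13), -1.20 (SE 0.12) and -0.85 (SE 0.17), with edgeR's Benjamini-Hochberg adjusted p = 6.35e-11, 4.53e-09 and 0.000183. Its level thus followed the bud stage in each species, while its species order was set by the rule.

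Orientalis-high genes changed in both directions between the bud stages. In C. grandiflora 3 of the 9 rose and 2 fell, in C. rubella 1 rose and 1 fell, and in C. orientalis 2 rose and 2 fell, by the same edgeR test and beside the same shares of all genes. The C. grandiflora count of 5 was 3 without replicate 1 of dividing buds and 1 without replicate 1 of expanding buds. The C. orientalis count of 4 was 2 without replicate 2 of dividing buds. The median log2 fold over the 9 genes was 0.13 in C. grandiflora, -0.13 in C. rubella and -0.14 in C. orientalis. Carubv10005712m.g fell in C. orientalis by 1.23 on the log2 scale (SE 0.17, edgeR's adjusted p = 9.44e-07).

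Against seedlings, changes were also found in both directions. Called in no species were 4 of the 23 rubella-high and 0 of the 9 orientalis-high genes, against 5.05% of all genes. Of the rubella-high genes, 5 (21.7%) were higher and 12 (52.2%) lower in the mean of both bud stages than in seedlings in C. grandiflora, against 42.1% and 35.9% of all genes (edgeR's quasi-likelihood test). In C. rubella 7 were higher and 9 lower, against 44.1% and 34.9%, and in C. orientalis 5 and 7, against 41.8% and 33.0%. The median log2 folds over the 23 genes were -0.82, -0.10 and 0.20 in C. grandiflora, C. rubella and C. orientalis, against 0.11, 0.16 and 0.15 over all genes. In C. grandiflora and C. rubella the largest difference was that of Carubv10002055m.g, which was called lower in the buds of all 3 species. It stood at 66.6 ± 8.90 CPM in C. grandiflora seedlings, 155 ± 13.4 CPM in those of C. rubella and 1.37 ± 0.321 CPM in those of C. orientalis (SD, n = 3 each), and its buds were lower by log2 folds of -4.13 (SE 0.11) in C. grandiflora and -3.76 (SE 0.11) in C. rubella, with edgeR's adjusted p = 4.32e-20 and 5.44e-20. Called changes went the same way in C. grandiflora and C. rubella in 13 of the 23 genes, against 63.8% of all genes, and in all 3 species in 8, against 52.0%. In Carubv10027002m.g alone they went opposite ways between C. grandiflora, where buds were lower by a log2 fold of -1.47, and C. rubella, where they were higher by 1.32, as in C. orientalis, where they were higher by 2.23. Opposite calls in these species were found for 2.93% of all genes.

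Buds of the 9 orientalis-high genes were also both higher and lower than seedlings. By the same edgeR test, 3 were higher and 4 lower in the buds of C. grandiflora. These counts were 3 and 3 for the buds of C. rubella, and 5 and 3 for those of C. orientalis. Of all genes tested, 42.1%, 44.1% and 41.8% were called higher in buds, with the species in the same order. Called lower were 35.9%, 34.9% and 33.0%, so changes in both directions were common among all genes too. The counts of the 9 genes were not tested against these shares. The median log2 folds over the 9 genes were 0.08, -0.97 and 0.51. Called changes went the same way in all 3 species in 5 of the 9 genes, near the 52.0% of all genes. Carubv10028525m.g was lower in buds than in seedlings in C. orientalis by a log2 fold of -2.30 (SE 0.15, edgeR's adjusted p = 2.15e-12) and in C. grandiflora by a log2 fold of -2.28 (SE 0.18, edgeR's adjusted p = 1.03e-10). Carubv10017863m.g went the other way, with log2 folds of 0.82, 0.77 and 1.00 in C. grandiflora, C. rubella and C. orientalis (SE 0.13, 0.16 and 0.11, edgeR's adjusted p = 3.87e-06, 9.92e-05 and 1.05e-08).

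**Figure D4:**
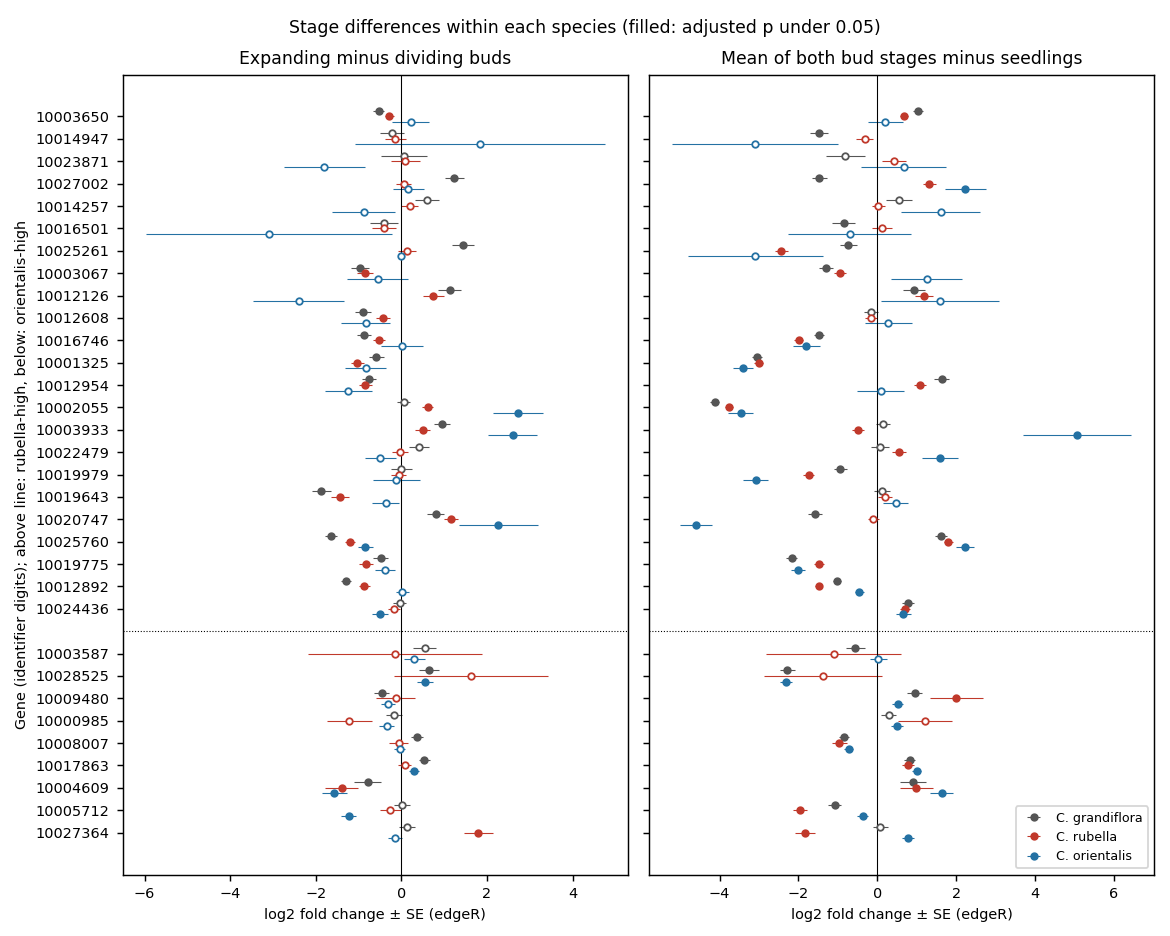
Log2 fold changes between stages within each species, with bars of 1 SE from edgeR, for expanding against dividing buds (left) and for the mean of both bud stages against seedlings (right). Filled points passed an adjusted p under 0.05, and the grey and red points of the rubella-high genes mostly fall on the same side of 0, with 13 of 23 called the same way in C. grandiflora and C. rubella in each panel, against 54.7% (left) and 63.8% (right) of all genes.

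Whether the stage change itself differed between the selfing species was tested with the difference of the log2 folds, C. orientalis minus C. rubella. For the bud stages the C. orientalis change was higher in 4 and lower in 1 of the rubella-high genes (edgeR's quasi-likelihood test, adjusted p under 0.05), against 8.43% and 14.6% of all genes, and 0 orientalis-high genes had a higher and 2 a lower one. The count of 5 rubella-high genes was 3 without replicate 1 or replicate 3 of C. orientalis dividing buds or replicate 1 of C. orientalis expanding buds. The count of 2 was 1 without replicate 3 of C. rubella dividing buds or replicate 2 or 3 of C. rubella expanding buds. For buds against seedlings 3 rubella-high genes had a higher and 2 a lower change, against 21.1% and 24.4% of all genes, and 2 orientalis-high genes had a higher and 0 a lower one. In all, 8 of the 23 and 2 of the 9 genes were called in at least 1 of these differences, against 56.7% of all genes. The median difference was 0.19 over the rubella-high and -0.18 over the orientalis-high genes for the bud stages, against -0.05 over all genes, and 0.23 and 0.24 against -0.05 for buds against seedlings. Many of these genes have few counts in the low species, where small differences are not detectable at this depth.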

How the data were processed

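Read counts per gene were deposited by the authors, 1 file per library, as whole numbers with no scaling. Trimmomatic and HTSeq are named in the submitters' processing notes. No version, aligner, genome build, annotation or strand setting is given in the sources used here, so overlapping genes and near-identical copies cannot be told apart. The 5 summary rows, which name no gene, were dropped. Reads outside genes were 3.04% to 5.57% of listed reads as group means, and ambiguous reads 3.78% to 4.63%.

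CPM was the count over the sum of gene counts, times 1000000. It carries no TMM scaling, so the log2 folds of the stage tests can differ from ratios of the CPM printed. The highest stage of a gene was read from CPM. Stage tests used edgeR 4.0.16 in R 4.3.3 on 23186 genes kept by filterByExpr, with TMM scaling and 1 fit of 27 libraries in 9 groups (18 residual degrees of freedom), and Benjamini-Hochberg adjustment over all genes. The SE is the log2 fold over the square root of F. The fit was tested on simulated data. Alternatives were RLE scaling, no filter, DESeq2 1.42.0, a fit of the species compared alone, a replicate block, stricter calls and leaving out each library. Replicate pairs gave chi-square values of 5.14 to 43.0 per degree of freedom, so none was a duplicate.

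The members and gene lists were chosen with earlier results of these data known. Genes named are those with the widest separation, the highest C. grandiflora level or the smallest adjusted p in each direction. Because the identifiers have no names, fewer were named than planned, and lists and stage markers set by product name could not be used. Carubv10014257m.g, Carubv10016501m.g, Carubv10023871m.g and Carubv10027002m.g were picked from the separation ranking after their values were seen.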

Additional observations from a re-analysis of the deposited data

Results flagged for a closer look

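The change between stages differed between C. orientalis and C. rubella, by the difference of log2 folds (C. orientalis minus C. rubella, quasi-likelihood test of edgeR with p adjusted by Benjamini-Hochberg), in 4 genes named by the smallest adjusted p. For expanding against dividing buds, Carubv10012892m.g gave 0.89 (SE 0.19, adjusted p = 0.000988). It fell in C. rubella by a log2 fold of -0.86 and stood at 0.03 in C. orientalis. Carubv10027364m.g gave -1.94 (SE 0.38, adjusted p = 0.000395). It rose in C. rubella from 0.333 ± 0.219 CPM in dividing buds to 1.13 ± 0.129 CPM in expanding buds and stood at 25.4 ± 1.36 and 20.6 ± 1.72 CPM in C. orientalis (SD, n = 3 each). Carubv10012126m.g gave -3.15 (SE 1.07, adjusted p = 0.0343). Its C. orientalis libraries held 23 counts in dividing and 4 in expanding buds, and the call was lost without replicate 3 of dividing buds (-2.35) and without any replicate of expanding buds (-3.59, -2.61 and -3.46).

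For buds against seedlings, Carubv10020747m.g gave -4.49 (SE 0.44, adjusted p = 1.09e-08). In C. orientalis it had 11 counts in expanding and 2 in dividing buds and 85 in seedlings, and in C. rubella its buds and seedlings differed by a log2 fold of -0.10. Carubv10027364m.g gave 2.61 (SE 0.29, adjusted p = 9.8e-08), lower in C. rubella buds by a log2 fold of -1.84 and higher in C. orientalis buds by 0.77. Carubv10012892m.g gave 1.04 (SE 0.16, adjusted p = 1.28e-05), with a log2 fold of -0.45 in C. orientalis against -1.49 in C. rubella.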

How the results depend on the processing

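Of the recomputed counts, 300 stayed within 1.5 times and 34 did not. For named genes, 461 values kept direction and call, 19 lost the call and 0 changed sign. The number of rubella-high and orientalis-high genes was 63 and 25 at 1.5-fold, 6 and 2 at 3-fold, and 7 and 4 with a floor of 5 CPM. It ran from 18 to 30 and from 6 to 11 with TMM or RLE scaling, other added constants, a floor of 1 CPM or the median of 3. Of the 23 and 9 members, TMM scaling kept 19 and 7, RLE scaling 20 and 7, the median of 3 kept 20 and 6 and an added constant of 1 kept 18 and 7. Leaving out 1 library gave 20 to 25 rubella-high and 6 to 10 orientalis-high genes, and kept at least 19 and 6 of the members.

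With a change of at least 2-fold also required, 6, 4 and 3 rubella-high genes were called between bud stages in C. grandiflora, C. rubella and C. orientalis. For orientalis-high genes these were 0 and 2 in C. grandiflora and C. orientalis, 2, 3 and 2 against seedlings in C. grandiflora, C. rubella and C. orientalis, and 1 for the bud difference between the selfers. At an adjusted p under 0.01, the bud counts were 3 rubella-high genes in C. orientalis and 1 for the difference, and 1 orientalis-high gene in C. grandiflora, 2 in C. orientalis and 1 for the difference. Fitted with only the species compared, they were 3 rubella-high genes in C. orientalis buds and 8 for the seedling difference, and 3 and 7 orientalis-high genes in C. grandiflora and C. orientalis buds. The shares of all genes called under these settings, or with 1 library left out, are not given here. Whether the members' counts moved more than those of all genes is therefore not known. The cause was not tested.

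Leaving out 1 library gave, between bud stages, 14 to 17, 12 to 13 and 3 to 5 rubella-high genes in C. grandiflora, C. rubella and C. orientalis and 3 to 5 for the difference, and 1 to 6, 2 to 3 and 2 to 4 orientalis-high genes and 1 to 2 for the difference.

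Same-numbered libraries of a species at different stages correlated from -0.24 to 0.24 over 27 pairs, with 5 over 0.1. In 6 of the 27 pairs the correlation was highest with the own number. Among these was each C. grandiflora pair of expanding buds and seedlings (0.144, 0.201 and 0.035). No label says that the numbers pair samples, and they are not taken to do so. With a replicate block the rubella-high count for the seedling difference was 4 in place of 5 and the other counts of calls were as before.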

Other observations

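The C. grandiflora libraries of Carubv10014947m.g and Carubv10016501m.g, both rubella-high, were high and low together, a pattern picked out after the values were seen. Carubv10014947m.g stood at 2.71, 5.66 and 8.69 CPM in expanding buds, 8.69, 11 and 4.41 CPM in dividing buds and 13.5, 16.0 and 19.7 CPM in seedlings. In the same libraries Carubv10016501m.g stood at 1.52, 4.08 and 5.46 CPM, then 6.38, 8.25 and 2.82 CPM, then 5.12, 8.10 and 8.82 CPM. At each stage the library that was lowest for the first gene was also lowest for the second, and likewise for the highest. In C. rubella the first gene was steady, at 36.2, 38.3 and 39.1 CPM in expanding buds, and the second at 18.6, 19.4 and 19.3 CPM. In C. orientalis their 9 libraries held 5 and 4 counts.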
